A study of Mus musculus with 81 samples.

Results

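The genes described here were 8 replacement histone variants: H2afz and H2afv, which encode H2A.Z, H2afx (H2A.X), H2afy (macroH2A1), H2afj (H2A.J), H1f0 (H1.0), H1fx (H1.X) and Cenpa (CENP-A, the centromeric H3). They were picked by symbol from the 55450 genes listed in the time course tables, and all 8 were present in every table. They were measured in 79 RNA-seq libraries of mouse macrophages and their cultured bone marrow progenitors. These were WT or carried a conditional deletion of the H3.3 genes H3f3a and H3f3b (cKO).

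Replacement variants take the place of the replication-coupled histones, which are made in S phase, and many of them can enter chromatin outside DNA replication. H2A.X is also made in S phase, and CENP-A mRNA peaks late in the cell cycle. H2A.Z is exchanged into nucleosomes around promoters by the SRCAP and p400 complexes and removed with the help of INO80 and ANP32E. H2A.X is phosphorylated around DNA breaks by ATM, ATR and DNA-PK. MacroH2A carries a macro domain and is linked to repressed chromatin, H2A.J to senescent cells, and H1.0 to differentiated cells. CENP-A marks centromeres and is loaded by its chaperone HJURP after division.

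WT mice carried floxed H3f3a and H3f3b without cre, and cKO mice carried the same alleles with cre knocked into both copies of Lyz2, which restricts deletion to myeloid cells. All were on a C57BL/6 background, young adult and of both sexes, and because WT lacked cre, the deletion and the cre insertion cannot be told apart. Bone marrow cells were collected on days 3, 5 and 7 of culture with M-CSF (18 libraries), and bone marrow-derived macrophages (BMDMs) on day 8, untreated or after 12 h of IFNγ (10 libraries). BMDMs grown without antibody, with an isotype control antibody or with an antibody that blocks the type I interferon receptor IFNAR1 gave 18 libraries. A further 27 came from 3 sets of WT and cKO BMDMs and from cKO BMDMs that also lacked Sting, Mavs or Irf7 (H3.3cKO:StingKO, H3.3cKO:MavsKO and H3.3cKO:Irf7KO), and 6 from peritoneal macrophages. Each group had 3 libraries, except cKO day 8 untreated and cKO day 8 IFNγ with 2 each. The labels call them biological replicates without naming animals, so the p-values measure the spread between these libraries.

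Libraries held 3614967 to 45581528 counts on genes, and cKO day 8 IFNγ replicate 1 was the smallest, with 57.1% of its reads unmapped. Relative to WT, H3f3a stood at 9.05% to 27.3% in cKO over 12 comparisons and Lyz2 at no more than 0.271%. H3f3b was at 11.5% to 13.2% in the antibody experiment but at 75% to 89.3% elsewhere. By edgeR's quasi-likelihood test at an adjusted p under 0.05, it differed in 3 of 12 comparisons, all in the antibody experiment. In these counts, a loss of its transcript was thus not established outside that experiment. The study itself reported loss of H3.3 mRNA by quantitative PCR in day 7 BMDMs and peritoneal macrophages. It also reported loss of H3.3 protein in day 7 BMDMs by western blot. It described the deletion of H3f3b as complete in some cKO samples and partial in others. The 10 macrophage markers summed to between 2848 and 16540 CPM (counts scaled to the size of the library) and none was at 0 in any group, while the 8 neutrophil markers reached 1583 to 4205 CPM in the day 3 libraries and at most 319 in the BMDM sets. In bulk RNA, fewer cells of a type and less RNA per cell cannot be told apart. WT day 7 replicate 2 and WT BMDM set 3 replicate 1 stood below their partners in 30 proliferation genes (1443 and 1969 CPM summed, against at least 4471 and 3850).

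Counting affected the members unequally, because a fragment that also touches a second gene was left out of the counts. H2afx (chr9:44334694-44336077, + strand, GRCm38), H2afj (chr6:136808244-136810074, +), H1f0 (chr15:79028450-79030504, +) and H1fx (chr6:87980421-87981637, −) are single-exon genes whose exons share 141, 141, 163 and 237 bases with other annotated genes. H2afy (chr13:56073619-56136361, −) shares 501 exonic bases with an antisense gene. The median share of fragments left out was 54% for H2afx, 66.8% for H2afj, 26.1% for H2afy, 18% for H1f0 and 47.6% for H1fx. H2afz (chr3:137864487-137866922, +), H2afv (chr11:6427229-6444443, −) and Cenpa (chr5:30666777-30674830, +) shared no exonic base and lost at most 0.0919%. Since the libraries do not mark strand, reads of these genes and of their antisense partners cannot be separated. H1fx had only 0 to 72 counts per library, and its values carry the largest counting error.

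Promoters from RefSeq (GRCm38.p6, 250 bases before to 50 after the start) were found for 7 of the 8 genes. Those of Cenpa, H2afz and H2afv are shown because all 3 genes were called lower in cKO of BMDM sets 1 and 3 and higher in WT with IFNAR1 than with control antibody. Capitals mark the CCAAT box, which reads as ATTGG from the other strand, and the letters TTTGAA, which read as TTCAAA from the other strand, and the matches did not overlap each other.
Cenpa (chr5:30666636-30666935, +): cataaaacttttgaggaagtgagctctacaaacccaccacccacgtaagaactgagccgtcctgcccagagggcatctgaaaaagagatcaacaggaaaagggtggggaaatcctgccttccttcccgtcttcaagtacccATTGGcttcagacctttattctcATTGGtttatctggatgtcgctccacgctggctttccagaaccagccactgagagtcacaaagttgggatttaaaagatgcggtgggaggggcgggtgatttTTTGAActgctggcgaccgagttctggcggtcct
H2afz (chr3:137864237-137864536, +): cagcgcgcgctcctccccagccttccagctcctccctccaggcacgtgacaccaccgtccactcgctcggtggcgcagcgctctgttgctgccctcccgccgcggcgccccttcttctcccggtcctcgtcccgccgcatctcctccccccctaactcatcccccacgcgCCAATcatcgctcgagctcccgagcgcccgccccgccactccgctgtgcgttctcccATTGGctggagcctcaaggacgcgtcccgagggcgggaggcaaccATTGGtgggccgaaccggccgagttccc
H2afv (chr11:6444394-6444693, −): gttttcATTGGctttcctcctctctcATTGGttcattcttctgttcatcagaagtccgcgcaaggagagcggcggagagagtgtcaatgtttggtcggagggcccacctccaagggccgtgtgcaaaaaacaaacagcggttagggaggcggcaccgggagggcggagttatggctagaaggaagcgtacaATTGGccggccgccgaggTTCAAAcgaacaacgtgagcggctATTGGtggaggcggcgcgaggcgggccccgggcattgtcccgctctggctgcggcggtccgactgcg
CCAAT was in the promoters of H2afz, H2afv, H2afj and Cenpa, 4 of 7, against 37.4% of all 32851 promoters of that length. TTTGAA was in those of H2afv and Cenpa, 2 of 7, against 17.9% of all. TTTCCCGC, TTTGGCGC, TTCNNNGAA and a pair of GAAA with 2 bases between them, searched on both strands, matched in 0 of 7, against 1.07%, 0.514%, 8.3% and 3.44% of all promoters.

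Levels of the members were compared with each other only as CPM per kilobase of exon. The order of H2afz and H2afx depended on how fragments were counted. In the counts used here, H2afz was the highest in 27 of 27 groups, with group means from 36.8 (cKO control antibody) to 173.8 (WT BMDM set 1). H2afx was second in 20 groups, with a median of 52.3 over the 25 bone marrow groups, and H1fx was last in all 27, at no more than 2.19. H1f0, H2afv, H2afy, Cenpa and H2afj lay between, with medians of 19.9, 13.5, 15.45, 11.6 and 9.31, and neighbours among them often overlapped within 1 SD. With the sum of both stranded columns, an alternative chosen after seeing the data that keeps the fragments left out above, H2afx was first in 13 groups, H2afz in 12 and H2afj in 2. The groups led by H2afx were all 6 of the time course, cKO day 8 untreated, the 3 cKO sets and the 3 double KOs. The medians over the bone marrow groups were then 110.4 for H2afx, 83.8 for H2afz and 24.9 for H2afj, and H1fx was again last in 27 groups. Cenpa's exons add up to 5860 bases over all its annotated isoforms, which lowers its value per kilobase. On that scale H2afv made up 4.31% ± 0.78 (SD, n = 3) of the H2afz and H2afv total in WT day 8 IFNγ BMDMs and 22.6% ± 4.22 (n = 3) in WT BMDMs without antibody, the ends of its range. Which of the 2 genes gave most H2A.Z mRNA was thus the same in every group.

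**Figure D1:**
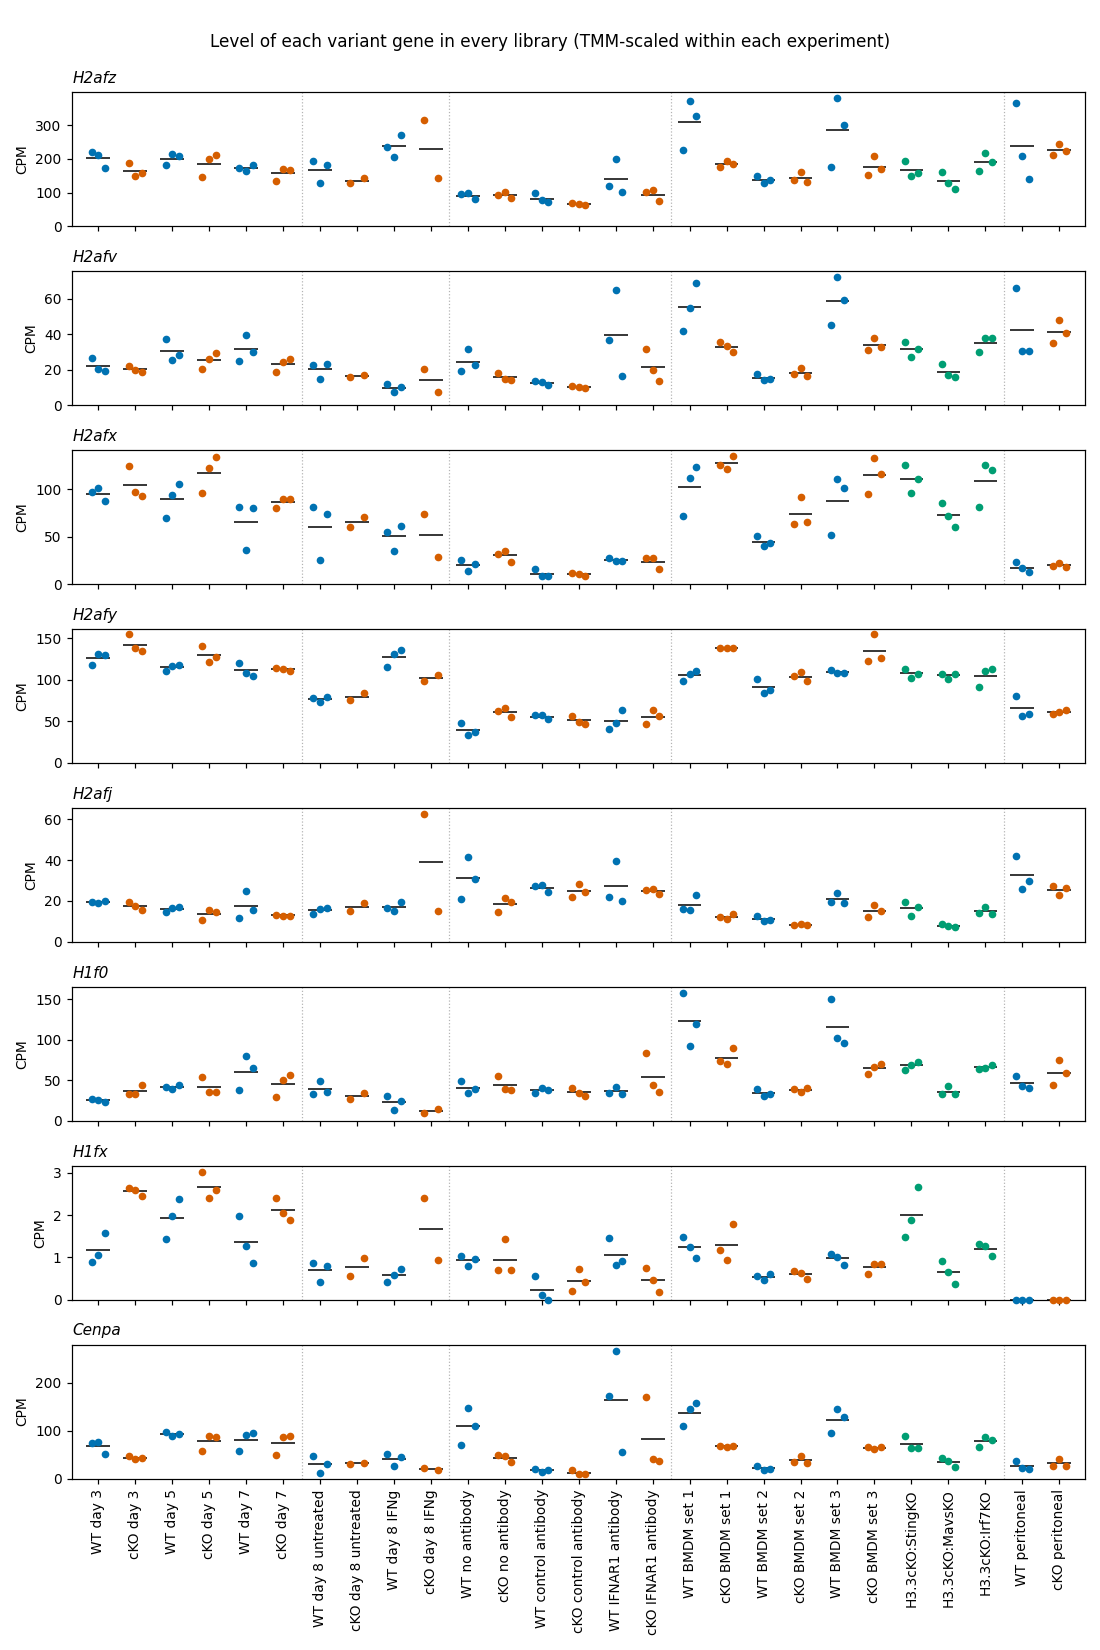
Level of each variant gene (CPM, linear axis from 0) in every library of the 27 groups, with WT in blue, cKO in orange, double KO in green and a black line at each group mean. Dotted lines part experiments that were scaled separately. H2afz lies between 62.8 and 381.8 CPM, H1fx at or below 3.02 CPM in every library.

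Among peritoneal macrophages, for which the study's methods name another library kit while the labels name 1 kit for all libraries, and which are set beside the BMDMs without a test, H2afz stood at 134 CPM per kilobase in WT and 128 in cKO. H2afx was at 12.6 and 14.4, below every bone marrow group outside the antibody experiment, whose 6 groups ran from 7.34 to 21.9, while H2afv was at 25.9 and 25.3. H1fx had 0 counts in all 6 libraries, which allows at most 0.128 to 0.393 CPM per library at 3 counts. Peritoneal markers summed to 24220 to 28210 CPM in these libraries and to no more than 32.5 in any bone marrow library. cKO and WT peritoneal macrophages differed in 0 of 7 tested members by edgeR's quasi-likelihood test, with 0 at an unadjusted p under 0.05 and 0 by DESeq2, where 0.971% of genes were called. The largest difference was in H1f0, at 55.2, 43.4 and 40.9 CPM in WT and 44.2, 75.3 and 59.0 in cKO (log2 fold change 0.36 ± 0.23 SE, adjusted p = 0.74). WT replicate 1 was high in H2afz (365 CPM against 209 and 140) and H2afv (65.9 against 30.4 and 30.5), and without it these genes went from -0.065 and -0.028 to 0.38 and 0.44 on the log2 scale.

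cKO BMDMs of sets 1 and 3 had less mRNA for Cenpa, both H2A.Z genes, H1f0 and H2afj and more for H2afy. In set 1, 6 of 8 members passed the test (34.7% of genes called), 5 lower (16.7% of genes) and 1 higher (18%). In set 3 it was again 6 (34.9%), 5 lower (18%) and 1 higher (16.9%), and they were the same genes in the same direction. Same-numbered WT libraries of sets 1 and 3 deviated together from their group means (r between 0.143 and 0.386 across genes), and the labels do not say whether those sets share animals, so set 3 is not counted as a second independent result.

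Cenpa, the centromeric variant, read 109, 146 and 158 CPM in WT and 68.2, 66.2 and 68.8 in cKO of set 1. In set 3 it read 94.5, 145 and 130 in WT and 65.4, 62.2 and 66.9 in cKO. No cKO library reached the lowest WT library in either set, and Cenpa fell by 1.02 ± 0.19 on the log2 scale in set 1 (adjusted p = 0.00017) and by 0.92 ± 0.19 in set 3 (adjusted p = 0.00047). None of the 10 genes for CENP-A loading and the inner kinetochore passed the test in set 1 or set 3, and their median was 0.076 and 0.19. Of 30 proliferation genes 13 were higher and 1 lower in each of those sets, with medians of 0.14 and 0.15. Of all genes, 18% and 16.9% were higher and 16.7% and 18% lower there.

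H2afz, the main H2A.Z gene, read 225, 373 and 328 CPM in WT and 176, 193 and 186 in cKO of set 1. It fell by 0.74 ± 0.20 (adjusted p = 0.0065). In set 3 it read 175, 382 and 300 in WT and 152, 208 and 169 in cKO, where the groups overlapped, and fell by 0.70 ± 0.20 (adjusted p = 0.0095). Its paralogue H2afv read 42.1, 54.8 and 68.8 CPM in WT and 35.5, 33.5 and 30.1 in cKO of set 1, without overlap, and fell by 0.74 ± 0.17 (adjusted p = 0.0016). In set 3 it fell by 0.80 ± 0.17 (adjusted p = 0.00074). Of the 13 genes for H2A.Z exchange, 3 were higher and 0 lower in set 1 (18% and 16.7% of all genes). In set 3, 3 were higher and 1 lower (16.9% and 18% of all genes). The counts of higher genes were thus near the share of all genes. Ino80, Ep400 and Ruvbl1, which encode a remodeller ATPase, the p400 ATPase and a helicase shared by both kinds of complex, rose in both sets by 0.21 to 0.36, and Yeats4, an acetyl-lysine reader, fell by 0.34 in set 3.

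H1f0, the linker histone of differentiated cells, read 158, 92.6 and 120 CPM in WT and 73.3, 70 and 89.6 in cKO of set 1. It fell by 0.67 ± 0.16 in set 1 (adjusted p = 0.0024) and by 0.85 ± 0.16 in set 3 (adjusted p = 0.00024), and cKO and WT did not overlap in either. H2afj, at 15.9, 15.6 and 22.8 CPM in WT and 12.1, 11.4 and 13.6 in cKO of set 1, fell by 0.55 ± 0.16 (adjusted p = 0.010) and in set 3 by 0.47 ± 0.16 (adjusted p = 0.022).

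H2afy, the macroH2A1 gene, went the other way. It read 97.9, 108 and 110 CPM in WT and 138, 139 and 138 in cKO of set 1, a rise of 0.39 ± 0.09 (adjusted p = 0.0012), and rose by 0.30 ± 0.09 in set 3 (adjusted p = 0.011). Supt16, a subunit of the FACT histone chaperone, rose by 0.66 and 0.59 in sets 1 and 3. There 18% and 16.9% of all genes were called higher, and a link of Supt16 to H2afy was not tested. H2afx was at 71.7, 112 and 124 CPM in WT and 126, 121 and 135 in cKO of set 1, with a log2 fold change of 0.32 ± 0.23 (adjusted p = 0.31). Of the 12 genes for kinases, readers and phosphatases of H2A.X, 0 were lower in either set. In set 1, 8 were higher (18% of all genes), and in set 3, 7 were higher (16.9%). They included Atr, a kinase of H2A.X, at 0.79 and 0.66, and Nbn, a subunit of the break-sensing MRN complex, at 0.58 and 0.59. The neutrophil markers summed to 59.3 to 120.3 CPM in WT and 194 to 319 in cKO of these 2 sets and the monocyte markers to 187 to 356 and 422 to 574, and their part in the differences was not tested.

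A few of these calls rested on single libraries. H2afj in set 1 was at -0.35 (adjusted p = 0.11) without WT replicate 3. In set 3, H2afz was not called without WT replicate 2 or cKO replicate 1 (adjusted p = 0.10 and 0.052), and H2afj was not called without WT replicate 2, cKO replicate 1 or cKO replicate 3 (adjusted p = 0.11, 0.14 and 0.056). H2afy in set 3 was at 0.18 (adjusted p = 0.12) without cKO replicate 2. Fitting set 3 alone also ended the calls of H2afz and H2afj there (adjusted p = 0.10 and 0.086). Cenpa, H2afv and H1f0 kept their calls in both sets with each library left out.

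**Figure D2:**
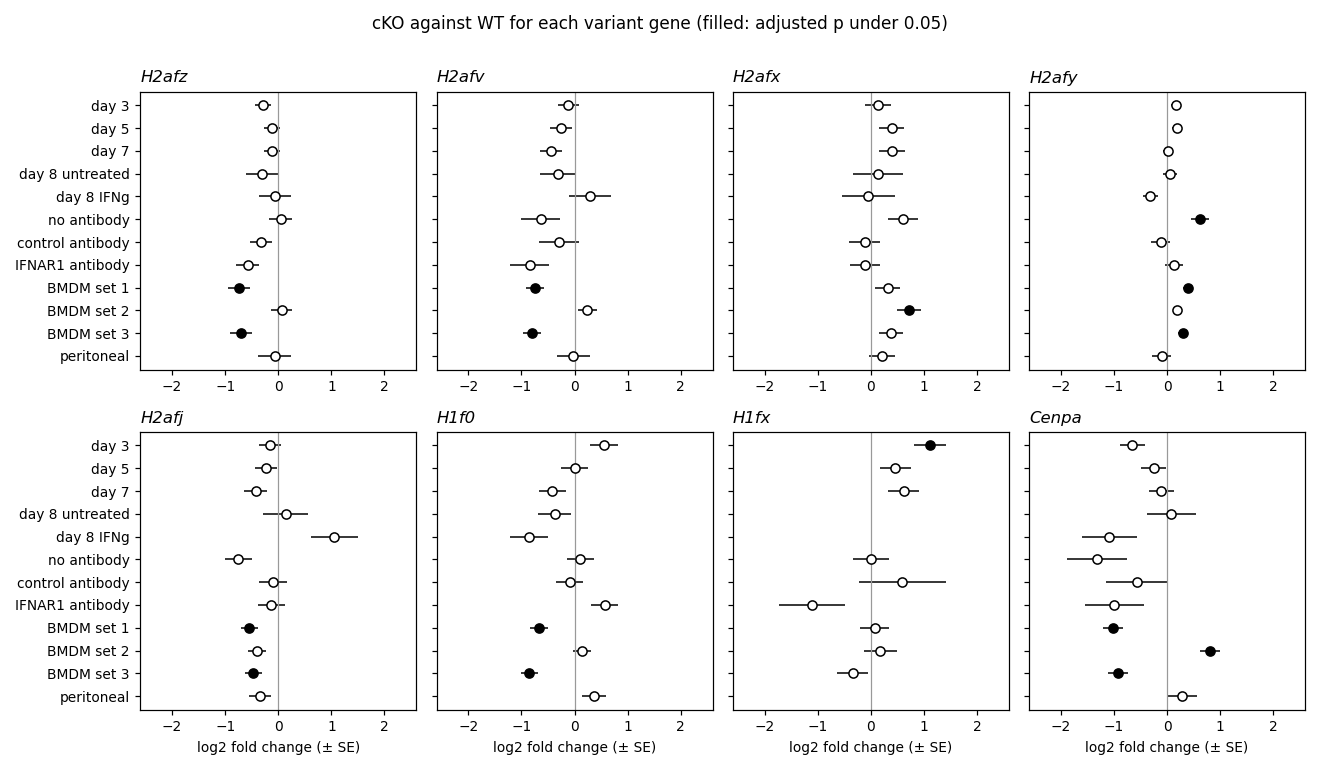
Log2 fold change of cKO against WT (x axis, bars ± SE) for each variant gene in the 12 genotype comparisons, with filled points where the adjusted p was under 0.05. Cenpa is at -1.02 and -0.92 in sets 1 and 3 and at 0.81 in set 2. H1fx has no point where it was too low to test.

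Set 2 differed. There 2 of 8 members passed (21% of genes called), both higher (9.74% of genes). Cenpa read 26.1, 18.8 and 20.1 CPM in WT and 34.7, 47.4 and 31.9 in cKO, a rise of 0.81 ± 0.19 (adjusted p = 0.0033), so cKO lay above WT where it lay below it in the other sets. H2afx read 50.7, 40.1 and 43.2 in WT and 63.6, 92 and 65.4 in cKO, a rise of 0.72 ± 0.23 (adjusted p = 0.027). Mean WT levels in set 2 were below those of set 1 for every member, H2afv among them (14.1 to 17.5 CPM against 42.1 to 68.8), though the libraries of all 3 sets were scaled together. H2afx lost its call without WT replicate 2, WT replicate 3 or cKO replicate 2 (0.65, 0.70 and 0.53 on the log2 scale, adjusted p = 0.10, 0.081 and 0.16). Whether the cKO difference itself varied between sets was tested with interaction terms added after the sets had been seen to differ. The difference was higher in set 2 than in set 1 by 1.83 ± 0.27 for Cenpa (adjusted p = 4.8e-05), by 0.98 ± 0.25 for H2afv (adjusted p = 0.0062) and by 0.81 ± 0.23 for H1f0 (adjusted p = 0.015), 3 of 8 members where 20% of genes were called, 8.42% upwards. Against set 3 the same 3 members were called (19.5% of genes, 9.04% upwards), at 1.73 ± 0.27, 1.04 ± 0.25 and 0.99 ± 0.23. H1f0 in the first of these was at 0.58 (adjusted p = 0.057) without WT set 1 replicate 1. H2afz was at 0.80 ± 0.29 (adjusted p = 0.051) and 0.76 ± 0.29 (adjusted p = 0.065), and the block on replicate number brought these to 0.77 (adjusted p = 0.023) and 0.70 (adjusted p = 0.035).

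In the time course, cKO and WT differed in few members. By direction alone, cKO exceeded WT in 16 of 16 interferon genes on days 3 and 5. The median over all genes tested was 0.036 and 0.0073 on the log2 scale. On day 3, 1 of 8 members was called higher (5.19% of genes, 7.73% in either direction), H1fx, with 13, 18 and 28 counts in WT and 42, 38 and 47 in cKO and a log2 fold change of 1.12 ± 0.30 (adjusted p = 0.032). Leaving out any library but WT replicate 3 ended this call (adjusted p 0.069 to 0.15), as did the stranded column with the larger total (0.78, adjusted p = 0.069) and a test without a filter on low counts (adjusted p = 0.065). Cenpa read 74.6, 77.4 and 52.2 CPM in WT and 47, 40.2 and 42.6 in cKO on day 3, without overlap, but its difference of -0.65 ± 0.24 missed the threshold (adjusted p = 0.11). Proliferation genes summed to 3376 to 4566 CPM in WT and 2910 to 3080 in cKO on that day, with 0 of 30 called, and their part in the Cenpa values was not tested. Markers of other cells were higher in cKO without overlap on day 3, at 486 to 696 CPM summed against 157 to 322 in WT for 4 monocyte genes (2 called), 24.8 to 49.0 against 11.6 to 12.3 for 5 B cell genes (3 called) and 9.36 to 15.4 against 2.52 to 3.43 for 4 mast cell genes (3 called), and their part in the H1fx call was not tested. With the fit restricted to the day 3 groups, 3 members passed, H1fx, Cenpa (adjusted p = 0.019) and H1f0 (0.53, adjusted p = 0.034).

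On day 5 and on day 7, 0 of 8 members were called, where 2.83% and 1.4% of genes were, with 0 and 1 at an unadjusted p under 0.05 and 0 by DESeq2 on both days. The log2 fold changes ran from -0.25 (H2afv and Cenpa) to 0.46 (H1fx) on day 5 and from -0.44 (H2afv) to 0.62 (H1fx) on day 7. Between neighbouring days, no member passed in WT (2.64% of genes from day 3 to 5 and 0.238% from day 5 to 7). None passed in cKO either (3.59% and 0.0564%). In the same order, 3, 0, 1 and 1 members had an unadjusted p under 0.05. DESeq2 called only Cenpa in cKO from day 3 to 5. There Cenpa went from 47, 40.2 and 42.6 CPM to 57.7, 89.5 and 87.3 (0.85 ± 0.24, adjusted p = 0.060 by edgeR and 0.015 by DESeq2). Without cKO day 5 replicate 1, the lowest in Cenpa and highest in interferon genes (5255 CPM summed against 843 and 1009), it passed (1.05, adjusted p = 0.021). H1f0 in WT rose in mean from 25.1 through 41.7 to 60.8 CPM over the 3 days. Its single steps of 0.73 ± 0.26 and 0.54 ± 0.26 missed the threshold (adjusted p = 0.14 and 0.29). Day 7 was not tested against day 3 within a genotype, so the whole rise of H1f0 was not tested. The change of the cKO difference from day 3 to day 7 was called for 0 of 8 members (0.0439% of genes), with 1 at an unadjusted p under 0.05, H1f0 at -0.98 ± 0.36, and 0 by DESeq2.

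Over the 18 time course libraries, the genes most like each member were found by Pearson correlation of log2 CPM among 8946 genes, as a description of libraries that share culture, day and genotype. Cenpa was closest to Knstrn (0.941), Ccnb2 (0.939) and Uevld (0.93), of which Knstrn encodes a spindle protein and Ccnb2 a mitotic cyclin. H2afx was closest to Hist1h2ah (0.969), Hist1h2ak (0.95) and Hdgfl2 (0.945), of which the first 2 are replication-coupled H2A genes. H2afz was closest to Rnaseh2c (0.906), H2afv to Miip (0.892), H2afj to Notch1 (0.913), H1f0 to Ganc (0.911) and H1fx to Cers6 (0.825). Among the members, H2afv and Cenpa were the most alike (0.782), and H2afy and Cenpa the most opposed (-0.699).

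IFNγ raised H2afy and lowered H2afv in WT BMDMs on day 8. Of 7 members tested, 2 passed, 1 higher and 1 lower, against 40.1% of genes (20% higher and 20.1% lower), so the share of members was below that of all genes. H2afy read 77.6, 73.3 and 79.1 CPM untreated and 116, 131 and 136 with IFNγ, a rise of 0.73 ± 0.12 (adjusted p = 0.00089) without overlap. H2afv read 22.7, 14.9 and 23.5 untreated and 11.9, 7.44 and 10.2 with IFNγ, again without overlap, and fell by 1.04 ± 0.32 (adjusted p = 0.024). H1f0 (32.6, 49.7 and 35.9 CPM untreated, 31.2, 13.5 and 24.7 with IFNγ) was at -0.76 ± 0.28 (adjusted p = 0.056), and H2afz (194, 127 and 182, then 236, 206 and 272) at 0.50 ± 0.27 (adjusted p = 0.16). H2afv lost its call without untreated replicate 1 or 3 or IFNγ replicate 2 or 3 (adjusted p 0.069 to 0.093), and H1f0 passed without IFNγ replicate 1 (-1.05, adjusted p = 0.023). The 2 H2A.Z genes thus stood apart after IFNγ, with the H2afv share of their sum per kilobase at 11.6% ± 0.57 untreated and 4.31% ± 0.78 with IFNγ (SD, n = 3 each).

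In cKO BMDMs with IFNγ 1 of 7 members passed, lower (16.4% of genes lower, 33.6% in either direction). H1f0 read 26.9 and 33.9 CPM untreated and 9.66 and 14.6 with IFNγ and fell by 1.24 ± 0.38 (adjusted p = 0.030). This call was lost without untreated replicate 1 or 2 or IFNγ replicate 1 (adjusted p = 0.065, 0.13 and 0.072, where a lone library is assumed to vary like the other groups), and with only the groups compared (0.075), the larger stranded column (0.11) or the sum of both stranded columns (0.072). Without IFNγ replicate 1, H2afy (0.44, adjusted p = 0.019) and H2afv (-1.10, adjusted p = 0.023) passed. H2afy read 75.7 and 83.7, then 98.4 and 106 CPM (0.36 ± 0.15, adjusted p = 0.086). The change of the IFNγ response from WT to cKO was called for 0 of 7 members and for 0% of genes, with 0 at an unadjusted p under 0.05 and 0 by DESeq2, and for H2afy it was -0.37 ± 0.19. cKO IFNγ replicate 1, the library with the fewest counts, was at 62.8 CPM in H2afj where all 9 other assigned day 8 libraries had 13.8 to 19.5, and at 20.5 in H2afv and 316 in H2afz against 7.54 and 145 in replicate 2. These values include scaling by TMM, which raised all genes of replicate 1. H3f3b, for example, read 325 CPM there with TMM and 149 without it, against 237 and 211 in replicate 2.

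cKO and WT differed in 0 of 7 members on day 8, both untreated (0.612% of genes) and with IFNγ (4.83%), with 0 and 3 at an unadjusted p under 0.05 and 0 by DESeq2 in both. Untreated, the log2 fold changes ran from -0.37 (H1f0) to 0.14 (H2afj). With IFNγ, Cenpa read 51.3, 25.3 and 46.1 CPM in WT and 22.3 and 17.3 in cKO (-1.09 ± 0.52, adjusted p = 0.23). Without cKO IFNγ replicate 2, H2afy (-0.40, adjusted p = 0.049) and H2afj (1.85, adjusted p = 0.00011) passed, and without replicate 1 H2afj was at -0.15. Genes that act on the variants were also called with IFNγ, where 40.1% of all genes were called in WT and 33.6% in cKO. Of all genes, 20.1% fell in WT and 16.4% in cKO. There 6 of 12 genes acting on H2A.X fell in WT and 4 in cKO and 1 rose in each, among them Prkdc, the catalytic subunit of DNA-PK (-1.66 and -1.50), and Mdc1, a reader of phosphorylated H2A.X (-1.30 and -1.14). Parp1, which binds the macro domain of macroH2A, fell by 1.97 and 1.72. Anp32e, the chaperone that removes H2A.Z, fell by 0.76 in WT and 0.98 in cKO. Of 30 proliferation genes 13 fell in WT and 17 in cKO, and 0 rose, which was not tested as a part of these changes.

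**Figure D3:**
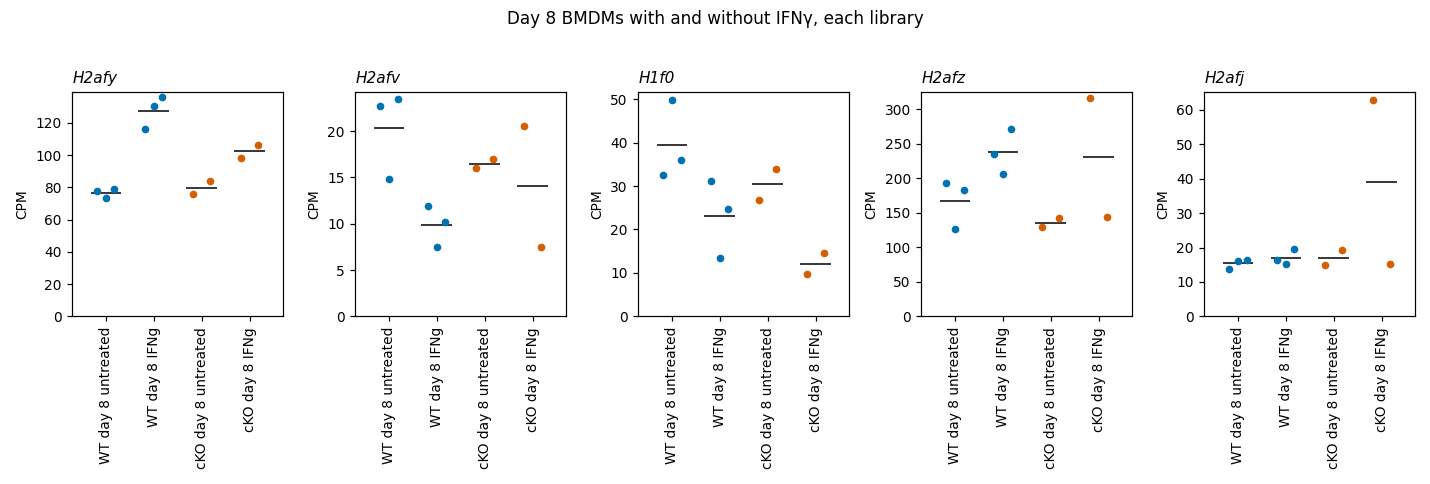
CPM (linear axis from 0) of 5 variant genes in each day 8 library, WT in blue and cKO in orange, with a black line at each group mean. H2afy is at 116 to 136 with IFNγ and 73.3 to 79.1 without it in WT, and 1 cKO IFNγ library stands at 62.8 in H2afj.

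The antibody experiment gave the widest range of Cenpa. In WT, 4 of 8 members were higher with IFNAR1 antibody than with control antibody (6.83% of genes higher, 9.89% in either direction). IFNAR1 antibody was not tested against no antibody. Cenpa read 70.1, 148 and 111 CPM without antibody, 20.9, 13.9 and 18.2 with control antibody, and 173, 267 and 56 with IFNAR1 antibody. The control antibody group lay below both others without overlap. Cenpa was higher by 3.23 ± 0.61 with IFNAR1 antibody than with control antibody (adjusted p = 0.0053), H2afv by 1.63 ± 0.38 (adjusted p = 0.015), H2afx by 1.20 ± 0.29 (adjusted p = 0.019) and H2afz by 0.77 ± 0.21 (adjusted p = 0.034). H2afz read 98.9, 76.9 and 70.5 CPM with control antibody and 118, 199 and 102 with IFNAR1 antibody. H2afx read 16.2, 8.33 and 8.69, then 27.2, 24.5 and 24.8, and H2afv 13.5, 12.8 and 11.6, then 36.8, 64.7 and 16.6. None of these groups overlapped.

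Control antibody against no antibody changed 1 of 8 members in WT, a lower one (5.63% of genes lower, 8.9% in either direction), Cenpa, which fell by 2.64 ± 0.59 (adjusted p = 0.017). H2afx was at -0.85 ± 0.29 (adjusted p = 0.073), and with the block on replicate number, which pairs these groups, it passed (-0.89, adjusted p = 0.030), giving 2 members. The control antibody thus differed from no antibody in the direction opposite to the IFNAR1 antibody against it, and those comparisons share the control antibody libraries.

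In cKO, 2 of 8 members were higher with IFNAR1 than with control antibody (2.34% of genes higher, 4.03% in either direction), Cenpa by 2.79 ± 0.61 (adjusted p = 0.021) and H2afx by 1.21 ± 0.29 (adjusted p = 0.030). Cenpa read 16.9, 9.22 and 8.61 CPM with control antibody and 172, 39.9 and 36.1 with IFNAR1 antibody, and without the highest library, IFNAR1 replicate 1, it was at 1.67 (adjusted p = 0.11). Control antibody against no antibody lowered 1 of 8 (0.797% of genes lower, 1.46% in either direction), H2afx, from 32.2, 35.2 and 23.7 to 12, 10.3 and 8.19 CPM (-1.57 ± 0.29, adjusted p = 0.024), and Cenpa was at -1.88 ± 0.59 (adjusted p = 0.13).

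Calls in this experiment were fragile. The 4 WT and 2 cKO calls between IFNAR1 and control antibody went to 0 when only the 2 groups compared were fitted (adjusted p 0.064 to 0.16 in WT, 0.072 and 0.091 in cKO). Each call but that of Cenpa in WT was also lost without 3 or 4 single libraries. WT control antibody replicates 2 and 3 were among them for H2afx (adjusted p = 0.11 and 0.094), H2afz (0.14 and 0.13) and H2afv (0.077 and 0.070), besides WT IFNAR1 replicate 1 for H2afx (0.072) and H2afz (0.057) and replicate 2 for H2afz (0.42 on the log2 scale, 0.17) and H2afv (1.08, 0.080). In cKO these were control antibody replicates 2 and 3 (0.10 and 0.16 for H2afx, 0.096 and 0.12 for Cenpa) and, for H2afx, IFNAR1 replicates 1 and 2 (0.12 and 0.084). Against no antibody, WT Cenpa lost its call without no antibody replicate 2 or 3 or control antibody replicate 2 or 3 (adjusted p 0.051 to 0.098), and cKO H2afx without no antibody replicate 1 or 2 or control antibody replicate 2 or 3 (0.11 to 0.17).

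The proliferation genes moved with these members. They summed to 1904 to 2170 CPM in WT without antibody, 572 to 1095 with control antibody and 1846 to 4264 with IFNAR1 antibody, and 26 of 30 were called higher between the last 2. Of the 10 genes for CENP-A loading and the inner kinetochore, 7 rose in WT between control and IFNAR1 antibody and 0 fell. They included Hjurp, the CENP-A chaperone (2.03 ± 0.35), and Cenpi and Cenpn, inner kinetochore subunits (1.88 and 1.55). In cKO 3 of 10 rose, Cenpi and Cenpn among them, and 3 of 10 replication-coupled histone genes rose in each genotype. The 5 stromal markers, with 0 called, summed to 164.3 to 306.1 CPM in cKO with control antibody, above no antibody (36.6 to 79.0) and IFNAR1 antibody (42.4 to 87.2) without overlap, while the WT groups overlapped. The part of dividing or stromal cells in the Cenpa, H2A.Z and H2afx values was not tested.

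cKO and WT differed in 1 of 8 members without antibody, higher in cKO (3.39% of genes, 7.1% in either direction). H2afy read 48.4, 33.3 and 37.5 CPM in WT and 61.9, 66.5 and 55 in cKO and rose by 0.62 ± 0.17 (adjusted p = 0.042), a call lost without WT replicate 2 or 3 or any cKO library (adjusted p 0.077 to 0.21). Cenpa was at 48.7, 47.5 and 35.3 CPM in cKO, below all WT libraries (-1.32 ± 0.56, adjusted p = 0.15). With control antibody and with IFNAR1 antibody 0 of 8 were called (4.45% and 0.675% of genes), with 0 and 3 at an unadjusted p under 0.05 and 0 by DESeq2 in both. The log2 fold changes ran from -0.56 (Cenpa) to 0.59 (H1fx) with control antibody and from -1.11 (H1fx) to 0.57 (H1f0) with IFNAR1 antibody. Without cKO IFNAR1 replicate 1, Cenpa in that last comparison passed at -2.12 (adjusted p = 0.046), and without WT IFNAR1 replicate 3 H2afz and H2afv did (-0.76 and -1.21, adjusted p = 0.049 and 0.038). The change of the cKO difference between the antibodies was called for 0 of 8 members and 0% of genes, with 0 at an unadjusted p under 0.05 and 0 by DESeq2, and for Cenpa it was -0.43 ± 0.81.

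**Figure D4:**
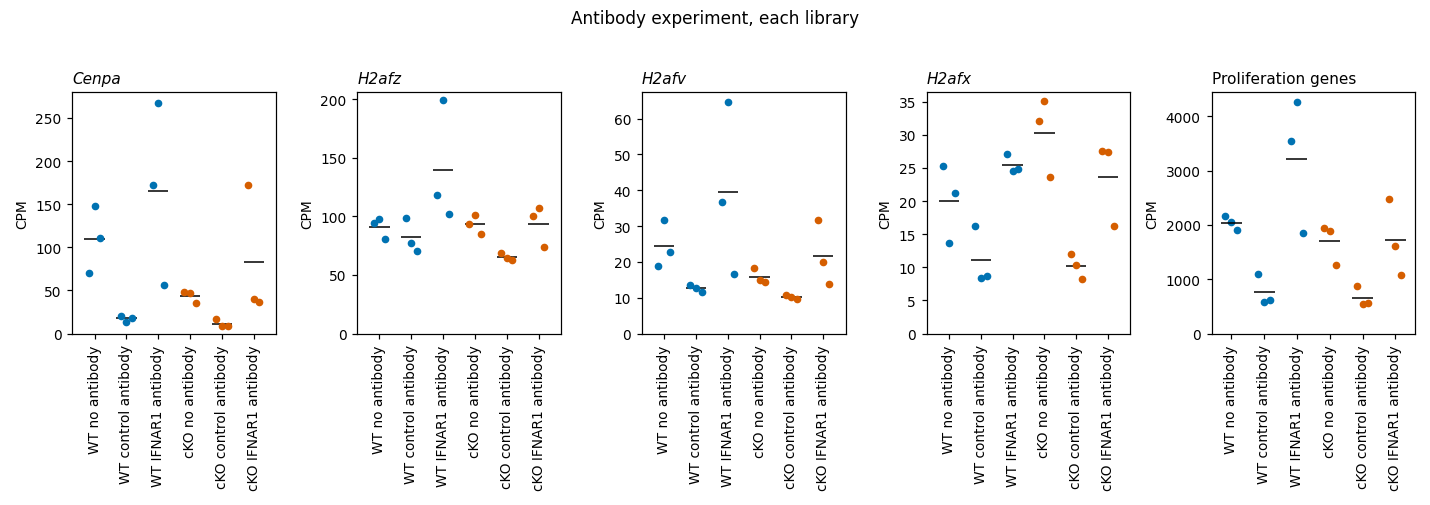
CPM (linear axes from 0) of 4 variant genes and the sum of 30 proliferation genes in each library of the antibody experiment, WT in blue and cKO in orange, with a black line at each group mean. Cenpa is at 13.9 to 20.9 in WT with control antibody and at 56 to 267 with IFNAR1 antibody, and the proliferation sum is lowest with control antibody in both genotypes.

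The double KO BMDMs were set against the mean of the 3 cKO sets, because the labels do not say which set was cultured with which double KO, and then against each set alone. In the order of the samples, H3.3cKO:StingKO follows set 1, H3.3cKO:MavsKO set 2 and H3.3cKO:Irf7KO set 3. The counts of set 3 and H3.3cKO:Irf7KO list 54146 genes, and those of the other sets and double KOs 55536. Against the mean, 4 of 8 members were called in H3.3cKO:StingKO (36.1% of genes), 5 of 8 in H3.3cKO:MavsKO (8.79%) and 2 of 8 in H3.3cKO:Irf7KO (9.85%). Of all genes, 18.9% were higher and 17.2% lower in H3.3cKO:StingKO, 4.36% higher and 5.5% lower in H3.3cKO:Irf7KO, and 3.24% lower in H3.3cKO:MavsKO. All 5 in H3.3cKO:MavsKO were lower (3.24% of genes), among them Cenpa at 42.9, 36.1 and 25.2 CPM (-0.67 ± 0.16, adjusted p = 0.0095) and H1f0 (-0.67 ± 0.14, adjusted p = 0.0026). The cKO sets themselves lay at 66.2 to 68.8 (set 1), 31.9 to 47.4 (set 2) and 62.2 to 66.9 CPM (set 3) in Cenpa, so the reference decided the outcome. Against set 2 alone, 0 of 8 members differed in H3.3cKO:MavsKO (0.487% of genes), with Cenpa at -0.13. Against set 1 or set 3 alone, 7 and 6 did (12.8% and 18.1%), with Cenpa at -0.96 and -0.90.

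H3.3cKO:StingKO and H3.3cKO:Irf7KO showed the reverse order. Against set 2 alone, 5 members were higher in each (33.7% and 19.6% of genes), with Cenpa at 0.92 and 1.04. Against set 1 alone only H2afy differed, lower in both (-0.36 and -0.40, with 22.5% and 7.83% of genes called). Against set 3 alone 2 members differed in H3.3cKO:StingKO (31.7%), H1fx at 1.37 and H2afy at -0.32, and 0 in H3.3cKO:Irf7KO (0.89%). H1fx, at 42, 52 and 72 counts in H3.3cKO:StingKO, was higher than the mean of the sets by 1.24 ± 0.21 (adjusted p = 8.7e-05) and than set 1 by 0.62 (adjusted p = 0.093). H2afj in H3.3cKO:StingKO was higher than the mean by 0.52 ± 0.13 (adjusted p = 0.0028) and Cenpa by 0.39 ± 0.15 (adjusted p = 0.047), and neither passed against set 1 or set 3 alone. Cenpa in H3.3cKO:Irf7KO was at 0.50 ± 0.15 (adjusted p = 0.034), also not called against set 1 or 3 alone.

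H2afy was lower than the mean of the cKO sets in all 3 double KOs, at 102 to 114 CPM in H3.3cKO:StingKO, 102 to 107 in H3.3cKO:MavsKO and 91.8 to 112 in H3.3cKO:Irf7KO. The cKO sets read 138 to 139, 98.0 to 109 and 122 to 155. The differences were -0.21 ± 0.07, -0.24 ± 0.07 and -0.24 ± 0.07 (adjusted p = 0.028, 0.039 and 0.034), they share the cKO libraries, and against set 2 alone H2afy was at 0.053, 0.020 and 0.018. Leaving out single libraries also ended them, H3.3cKO:StingKO replicate 2 or 3 (adjusted p = 0.13 and 0.086), any H3.3cKO:MavsKO library (0.096 to 0.17) and H3.3cKO:Irf7KO replicate 1 or 2 (0.30 and 0.061), besides cKO set 2 replicates 1 and 2 and set 3 replicate 2 in the last 2 comparisons and set 1 replicates 1 and 2 in H3.3cKO:MavsKO (0.053 to 0.067). Cenpa in H3.3cKO:StingKO lost its call without replicate 1 (0.20, adjusted p = 0.43) and without any cKO library but set 2 replicate 2 (0.058 to 0.081), and in H3.3cKO:Irf7KO without replicate 2 or 3 (0.20 and 0.115) or cKO set 1 replicate 2, set 2 replicate 1 or 3 or set 3 replicate 2 (0.052 to 0.060). In H3.3cKO:MavsKO, leaving out replicate 3 ended the calls of H2afv, H2afj and Cenpa (0.17, 0.080 and 0.13), and leaving out replicate 2 that of H2afv (0.12). H2afj in H3.3cKO:StingKO was lost without replicate 1 (0.37 on the log2 scale, adjusted p = 0.066). Interferon genes summed to 2109 to 2592 CPM in H3.3cKO:StingKO, 1291 to 1605 in H3.3cKO:MavsKO and 1246 to 2075 in H3.3cKO:Irf7KO, against 1239 to 1887 in the cKO sets. The 5 stromal markers summed to 163.5 to 201.4 CPM in H3.3cKO:StingKO (3 called higher) and 82.1 to 293.5 in H3.3cKO:MavsKO (5 called higher), against 23.6 to 70.0 in the cKO sets. Proliferation genes were at 3061 to 3267 in H3.3cKO:StingKO, with 13 of 30 called lower, against 3647 to 4586 in the cKO sets, and monocyte markers at 79.2 to 291.6 in H3.3cKO:Irf7KO against 369.9 to 573.6. The part of these markers in the double KO values was not tested.

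**Figure D5:**
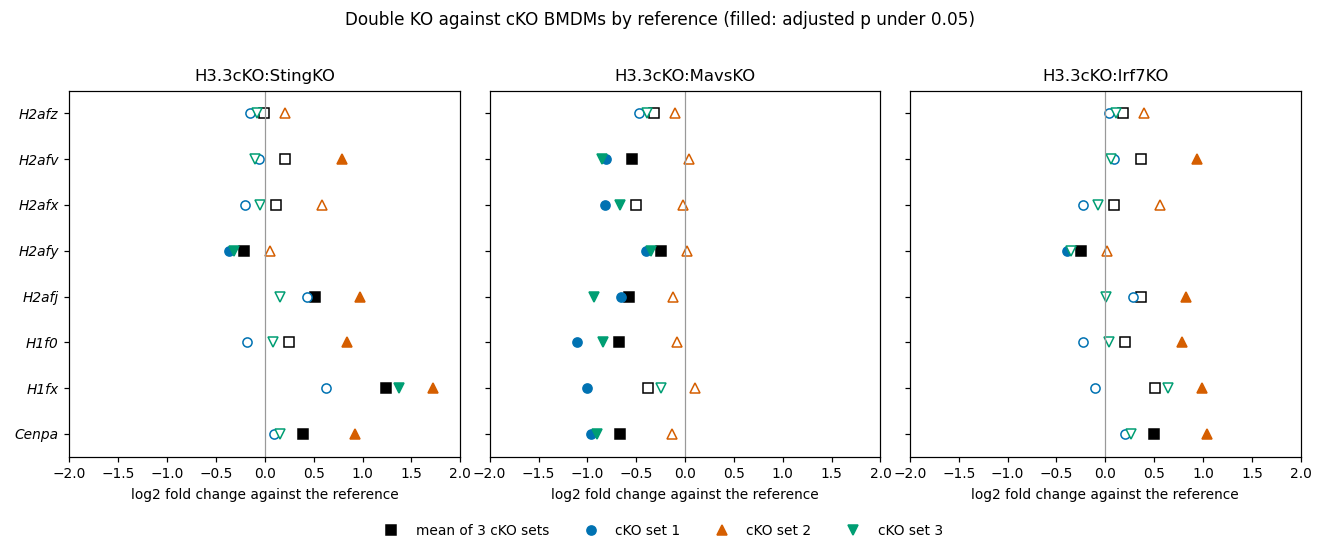
Log2 fold change of each variant gene in the 3 double KOs (panels) against the mean of the cKO sets (black squares) and against cKO set 1 (blue circles), set 2 (orange triangles) or set 3 (green triangles) alone, with filled symbols where the adjusted p was under 0.05. Cenpa in H3.3cKO:MavsKO is at -0.96, -0.13 and -0.90 against sets 1, 2 and 3.

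Over all 12 comparisons of cKO with WT, Cenpa was lower in 9 and higher in 3, with 2 and 1 called. H2afz, H2afv and H2afj were each lower in 10, with 2 called lower and 0 higher. H2afx and H2afy were each higher in 9, with 1 and 3 called. H1f0 was split 6 to 6 with 2 called lower, and H1fx, tested in 9, was higher in 6 with 1 called. All calls of lower members came from sets 1 and 3, where 16.7% and 18% of all genes were called lower. The labels do not say whether these sets share animals, so such pairs of calls are not counted as independent. H2afy was called in the same sets (18% and 16.9% of genes higher) and without antibody (3.39%). Cenpa and H2afx were called higher in set 2 (9.74%) and H1fx on day 3 (5.19%). The other counts are of direction only.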

How the data were processed

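RNA-seq libraries were trimmed with cutadapt and aligned to mm10 with STAR by the authors, who deposited the gene counts that STAR writes for each library (versions not given in the sources used here). Counts of fragments without regard to strand were used. The shares of counts on both strand columns were nearly equal (49.9% to 50.7%), so the libraries do not mark strand. The members and gene lists were chosen with earlier results of these data known. Here, counts were scaled by TMM and tested with edgeR (4.0.16) by the quasi-likelihood test, in 1 model per experiment, after filterByExpr (smallest count 10, smallest total 15) and with Benjamini-Hochberg adjustment over all genes tested. Members with an adjusted p under 0.05 were called, and the SE is the log2 fold change over the square root of F. All 8 members are counted in every comparison and, where none was called, given by the range of their fold changes or by the members described, and list genes are named only where called. A few genes that this rule names are not reported here. DESeq2 (1.42.0), other normalizations, filters, columns and subsets were alternatives. The tests were tried on simulated counts with the same spread for every gene and 200 genes changed 2-fold. They recovered 72.5% of these in the time course, 52.5% on day 8 and 67.5% in peritoneal macrophages. In the antibody experiment it was 63.5% and in the BMDM sets 73.5%, with 1 to 13 false calls. A member that was not called can therefore still differ. Coordinates are from GENCODE M21. No 2 libraries of an experiment held the same counts within sampling noise (chi-square per degree of freedom of at least 3.67).

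Assigned libraries held 3614967 to 45581528 counts on genes (median 18440728). Groups follow the sample titles and characteristics. Replicate numbers come from the sample titles, and whether they pair the groups was checked by correlating deviations from the group means across genes. Every pair correlated above 0.1 for cKO and WT on days 3 and 7 (lowest 0.126 and 0.153), cKO days 5 and 7 (0.233), WT IFNγ and untreated (0.335), peritoneal cKO and WT (0.144) and WT control and no antibody (0.145). A total of 2 day 8 cKO libraries whose labels disagree on treatment were left out of all comparisons.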

Additional observations from a re-analysis of the deposited data

Results flagged for a closer look

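The cKO difference varied between BMDM sets for 3 members, by an interaction term in the edgeR quasi-likelihood model of all 27 libraries. The term was added after the sets had been seen to differ, and its adjusted p-values run over all genes. Cenpa was higher in cKO relative to WT in set 2 than in set 1 by 1.83 ± 0.27 on the log2 scale (adjusted p = 4.8e-05) and than in set 3 by 1.73 ± 0.27 (adjusted p = 7.7e-05). For H2afv the differences were 0.98 ± 0.25 (adjusted p = 0.0062) and 1.04 ± 0.25 (adjusted p = 0.0041), and for H1f0 0.81 ± 0.23 (adjusted p = 0.015) and 0.99 ± 0.23 (adjusted p = 0.0037). Of all genes, 20% and 19.5% were called in these terms. The 4 monocyte markers summed to 77.5 to 104.2 CPM in WT of set 2 and to 187 to 356 in WT of sets 1 and 3, against 369.9 to 435.2 in cKO of set 2 and 422 to 574 in cKO of sets 1 and 3, and their part in the difference was not tested. Set, culture and sequencing cannot be told apart.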

How the results depend on the processing

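The number of members called stayed within 1.5 times its value in all 30 comparisons with RLE size factors and with a minimum mean of 1 CPM. With the larger stranded column, it was 0 for cKO against WT day 3 and cKO IFNγ against untreated, 1 for H3.3cKO:Irf7KO. With only the groups compared, it was 0 for cKO IFNγ against untreated, WT IFNAR1 against control antibody and cKO IFNAR1 against control antibody, 1 for WT day 5 against day 3 and cKO day 5 against day 3, 2 for WT control against no antibody, 3 for cKO against WT day 3, 4 for WT IFNγ against untreated, cKO control against no antibody and cKO against WT BMDM set 2. Without a filter on low counts, it was 0 for cKO against WT no antibody, 1 for cKO day 5 against day 3 and the change of the IFNγ response between genotypes, 2 for WT control against no antibody and cKO control against no antibody, 3 for cKO against WT day 8 IFNγ and cKO IFNγ against untreated, 5 for the change of the cKO difference BMDM set 2 against set 1. With DESeq2, it was 1 for cKO day 5 against day 3, 2 for cKO IFNγ against untreated, cKO against WT no antibody and cKO control against no antibody, 3 for WT control against no antibody. With the sum of both stranded columns, it was 0 for cKO IFNγ against untreated, 2 for cKO against WT no antibody. With the replicate block, it was 0 for cKO IFNγ against untreated, 2 for WT control against no antibody. Against cKO set 1 alone, it was 1 for H3.3cKO:StingKO and H3.3cKO:Irf7KO. Against cKO set 3 alone, it was 0 for H3.3cKO:Irf7KO, 2 for H3.3cKO:StingKO. Against cKO set 2 alone, it was 0 for H3.3cKO:MavsKO, 5 for H3.3cKO:Irf7KO. With each library left out in turn, it ran from 0 to 0 for cKO against WT day 5, cKO against WT day 7, WT day 5 against day 3, WT day 7 against day 5, cKO day 7 against day 5, the change of the cKO difference day 7 against day 3, cKO against WT day 8 untreated, cKO against WT peritoneal, cKO against WT control antibody and the change of the cKO difference IFNAR1 against control antibody, from 0 to 1 for cKO against WT day 3, cKO day 5 against day 3 and cKO control against no antibody, from 0 to 2 for cKO against WT day 8 IFNγ, the change of the IFNγ response between genotypes, cKO against WT no antibody, cKO against WT IFNAR1 antibody, cKO IFNAR1 against control antibody and H3.3cKO:Irf7KO, from 0 to 3 for cKO IFNγ against untreated and WT control against no antibody, from 1 to 2 for cKO against WT BMDM set 2, from 1 to 3 for WT IFNγ against untreated. It ran from 1 to 5 for WT IFNAR1 against control antibody and H3.3cKO:MavsKO, from 2 to 4 for H3.3cKO:StingKO, from 3 to 3 for the change of the cKO difference BMDM set 2 against set 1, from 3 to 4 for the change of the cKO difference BMDM set 2 against set 3, from 4 to 6 for cKO against WT BMDM set 3, from 5 to 6 for cKO against WT BMDM set 1. Leaving out a cKO day 8 library left 1 in its group, which was assumed to vary like the other groups.

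With each library left out in turn, cKO against WT day 5 gave log2 fold changes from -0.22 to 0.038 for H2afz, with a changed sign without cKO day 5 replicate 1 (H2afz). WT day 7 against day 5 gave log2 fold changes from -0.24 to 0.34 for H2afj, with a changed sign without WT day 7 replicate 2 (H2afj). The change of the cKO difference day 7 against day 3 gave log2 fold changes from -0.49 to 0.088 for H2afj, with a changed sign without WT day 7 replicate 2 (H2afj). cKO against WT day 8 IFNγ gave log2 fold changes from -0.38 to 1.01 for H2afv, from -0.15 to 1.85 for H2afj, from -0.79 to 0.53 for H2afx and from -0.69 to 0.38 for H2afz, with a changed sign without cKO day 8 IFNγ replicate 1 (H2afv and H2afj) and without cKO day 8 IFNγ replicate 2 (H2afx and H2afz). cKO IFNγ against untreated gave log2 fold changes from -0.15 to 1.85 for H2afj, from -1.17 to 0.15 for H2afx and from -1.10 to 0.29 for H2afv, with a changed sign without cKO day 8 IFNγ replicate 1 (H2afj) and without cKO day 8 IFNγ replicate 2 (H2afx and H2afv). The change of the IFNγ response between genotypes gave log2 fold changes from -0.37 to 0.69 for H2afz, from -0.049 to 1.32 for H2afv and from -0.27 to 1.71 for H2afj, with a changed sign without cKO day 8 IFNγ replicate 1 (H2afz, H2afv and H2afj). cKO against WT peritoneal gave log2 fold changes from -0.37 to 0.38 for H2afz and from -0.25 to 0.44 for H2afv, with a changed sign without WT peritoneal replicate 1 (H2afz and H2afv). cKO against WT control antibody gave log2 fold changes from -0.29 to 0.27 for H2afx, with a changed sign without WT control antibody replicate 1 (H2afx). cKO against WT IFNAR1 antibody gave log2 fold changes from -0.31 to 0.24 for H2afj, with a changed sign without WT IFNAR1 antibody replicate 2 (H2afj). WT IFNAR1 against control antibody gave log2 fold changes from -0.34 to 0.21 for H2afj, with a changed sign without WT IFNAR1 antibody replicate 2 (H2afj). WT control against no antibody gave log2 fold changes from -0.44 to 0.041 for H2afj, with a changed sign without WT no antibody replicate 2 (H2afj). The change of the cKO difference IFNAR1 against control antibody gave log2 fold changes from -0.43 to 0.099 for H2afz, from -0.91 to 0.012 for H2afv and from -0.21 to 0.35 for H2afj, with a changed sign without WT IFNAR1 antibody replicate 2 (H2afz, H2afv and H2afj). cKO against WT BMDM set 1 gave log2 fold changes from -0.22 to 0.26 for H1fx, with a changed sign without cKO BMDM set 1 replicate 3 (H1fx). With the larger stranded column, the log2 fold change turned to -0.77 for H1fx in cKO against WT control antibody, and to 0.12 for H1fx in the change of the cKO difference IFNAR1 against control antibody. With the sum of both stranded columns, the log2 fold change turned to -0.28 for H1fx in cKO against WT BMDM set 1. Against cKO set 1 alone, the log2 fold change turned to -0.20 for H2afx, -0.063 for H2afv and -0.18 for H1f0 in H3.3cKO:StingKO, and to -0.23 for H2afx, -0.23 for H1f0 and -0.11 for H1fx in H3.3cKO:Irf7KO. Against cKO set 2 alone, the log2 fold change turned to 0.053 for H2afy and 0.21 for H2afz in H3.3cKO:StingKO, and to 0.020 for H2afy, 0.041 for H2afv and 0.10 for H1fx in H3.3cKO:MavsKO, and to 0.018 for H2afy in H3.3cKO:Irf7KO. Against cKO set 3 alone, the log2 fold change turned to -0.098 for H2afv in H3.3cKO:StingKO. The cause of these shifts was not tested.

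Depth limited H1fx most, since it was counted lowest. With the replicate block, the adjusted p of H1f0 in cKO IFNγ against untreated was 0.0598 (log2 fold change -1.25), that of H2afy in cKO against WT without antibody 0.0562 (0.62), that of H2afj there 0.040 (-0.72) and in set 2 0.0260 (-0.39), and those of H2afz in the changes of the cKO difference between sets 0.0228 (0.77) and 0.0349 (0.70). Beside H2afx in WT control against no antibody, the block changed no other call. In cKO IFNγ against untreated the same-numbered libraries deviated in opposite ways (r = -0.187), and with their numbers crossed, in a replicate block chosen after seeing the data, 0 members were called. The sum of both stranded columns and the terms between sets were also chosen after seeing the data.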

Other observations

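There were 2 cKO day 8 libraries whose titles and library names disagree on IFNγ, so neither was placed in a group. The one titled IFNγ and named untreated read 79.9 CPM in H2afy, 18.4 in H2afv, 32.1 in H1f0, 44.6 in Cenpa and 158 in H2afz. The one titled untreated and named IFNγ read 115 CPM in H2afy, 7.45 in H2afv, 13.9 in H1f0, 16.5 in Cenpa and 132 in H2afz.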
